A study of Mus musculus with 25 samples.

Results

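The 8 genes described here are relatives and partners of Bin1 in membrane bending and endocytosis, namely Bin2, Bin3, Dnm2, Sh3gl1, Sh3glb1, Snx9, Snx18 and Pacsin2. They were listed by symbol, with no expression value in the rule, and make up 8 of the 43411 genes in the count table. The question was whether any of them was expressed more in microglia in which Bin1 was lower. All 8 passed the filter on low counts, as did 12908 genes in all.

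RNA was sequenced from microglia sorted as CD11b+ and CD45med cells from the brains of 23 mice, 1 library per mouse. All mice were 3 months old and came from crosses of the B6.129S6-Bin1tm2Gcp/J and FVB/N-Tg(Thy1-cre)1Vln/J lines. The homozygous group (Homo-cKO) was Bin1flox/flox and Thy1-Cre+, with 10 mice (5 females and 5 males). The heterozygous group (Het-cKO) was Bin1flox/wt and Thy1-Cre+, with 7 mice (4 females and 3 males). The WT littermates were Bin1flox/wt and Thy1-Cre-, with 6 mice (2 females and 4 males), so that every group carried at least 1 floxed allele and the homozygous group carried 2. Thy1-Cre is used to delete in excitatory neurons of the forebrain. The cells therefore come from mice in which Bin1 was targeted in other cells. In sorted populations, fewer cells of a type and less RNA per cell cannot be told apart.

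BAR domains are curved protein modules that bind and bend membranes. During endocytosis, a cell forms a bud from its surface membrane, often under a clathrin coat, and BAR proteins shape the neck of the bud and bring in dynamin, a GTPase that cuts it off. Bin1, also called amphiphysin 2, is an N-BAR protein that binds dynamin and clathrin. Microglia, the resident macrophages of the brain, take up debris and solutes through endocytosis and phagocytosis, and most of these proteins also act on actin or on endosomes.

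The members fall into 4 kinds by role. Bin2 and Bin3 are paralogs of Bin1. Bin2 is expressed in cells of the blood and immune lineages, and Bin3 holds a BAR domain without the SH3 domain of Bin1. Sh3gl1 encodes endophilin A2 and Sh3glb1 encodes endophilin B1, N-BAR proteins that act in uptake at the cell surface and on intracellular membranes, respectively. Dnm2 is the dynamin that is expressed in most tissues. Snx9 and Snx18 are sorting nexins with a BAR and an SH3 domain that link dynamin with actin assembly, and Pacsin2 is an F-BAR protein that binds dynamin and acts at caveolae and endosomes.

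On the GRCm38 build, which underlies mm10, the members lie on 6 chromosomes. Bin2 (ENSMUSG00000098112) spans 100641077 to 100669553 on the minus strand of chromosome 15, and Bin3 (ENSMUSG00000022089) spans 70100105 to 70138206 on the plus strand of chromosome 14. The endophilin genes are Sh3gl1 (ENSMUSG00000003200, chromosome 17, 56016750 to 56036635, minus strand) and Sh3glb1 (ENSMUSG00000037062, chromosome 3, 144683678 to 144720335, minus strand). Dnm2 (ENSMUSG00000033335) lies on the plus strand of chromosome 9 from 21424908 to 21507759. Of the sorting nexins, Snx9 (ENSMUSG00000002365) spans 5841329 to 5931954 on the plus strand of chromosome 17, and Snx18 (ENSMUSG00000042364) spans 113592179 to 113618564 on the minus strand of chromosome 13. Pacsin2 (ENSMUSG00000016664) spans 83375607 to 83464606 on the minus strand of chromosome 15. The exons of Dnm2 overlap a short stretch of Tmed1, on the opposite strand, those of Bin3 overlap Ccar2 over 43 bases, and those of Sh3gl1 overlap Mpnd over 41 bases. A strand setting for the counting is not given in the sources used here, so reads in these stretches could come from either gene. Between 0.0% and 4.18% of the 25-base sequences of a member's transcripts also occur in another gene, with the highest share in Dnm2.

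Each library held between 10812877 and 16734740 counts on genes (median 13477880). The smallest count behind any member's value was 379 reads, for Bin3 in a heterozygous mouse. Microglial identity was clear in every library, in that the summed level of 11 microglia markers lay between 53520 and 89810 CPM (counts per 1000000 counts of the TMM-normalized library total), with no marker at 0. Several features moved with the homozygous genotype. The summed CPM of the microglia markers was 62680 to 89810 in WT and 53520 to 62800 in homozygous mice, and 7 of the 11 were lower by the test described below. The summed CPM of 13 neuron markers was 12.98 to 46.58 in WT, 18.18 to 36.41 in heterozygous and 5.152 to 10.59 in homozygous mice, with 5 of 8 tested markers lower and none at 0 in any group. The summed CPM of 12 immediate early genes was 334.3 to 443.6 in WT and 428.2 to 9886 in homozygous mice, with 8 of 10 tested genes higher and Btg2 at 0 in every mouse. The summed CPM of 6 monocyte or neutrophil markers was 4.633 to 20.23 in WT and 11.84 to 55.96 in homozygous mice, with 1 of 4 tested markers higher (Ccr2). Among the markers of other brain cells, 1 of 5 tested astrocyte genes (Aldoc), 2 of 5 oligodendrocyte genes (Mobp and Mbp) and 1 of 2 endothelial genes (Pecam1) were lower. These marker names were chosen after their values were seen. All WT and heterozygous mice have animal numbers in the series from 200, whereas 6 homozygous mice have numbers in the series from 300 and 4 in that from 400, so genotype and number range cannot be told apart. The part of these features in the results below was not tested except where an adjusted value is given.

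Bin1 itself was lower in microglia of homozygous mice. The WT littermates had 599.7, 688.6 and 814 CPM as lowest, median and highest values, the heterozygous mice 629.1, 691.1 and 746.9 CPM, and the homozygous mice 327.6, 468.6 and 672.7 CPM. Of the 10 homozygous mice, 8 lay below every WT littermate, and all 7 heterozygous mice lay within the WT range. In edgeR's quasi-likelihood test, with the 3 genotypes and sex in 1 fit, the log2 fold change of Bin1 in homozygous against WT mice was -0.60 (SE 0.117, adjusted p = 0.0017), a decrease of 33.9% by the fitted fold of 0.661. In heterozygous against WT mice it was -0.07 (SE 0.127, adjusted p = 0.94).

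Each member was well expressed in these cells. To compare levels between genes, CPM was divided by the length of all annotated exons of the gene in kilobases (CPM per kb). By this measure, Snx18 was the highest, at 88.69 ± 9.27 CPM per kb (SD, n = 23), followed by Dnm2 at 79.27 ± 6.16 and Pacsin2 at 58.72 ± 5.65. Bin2 had 52.87 ± 3.2 CPM per kb, Sh3glb1 38.41 ± 3.74, Sh3gl1 27.26 ± 2.47, Bin3 20.07 ± 2.34 and Snx9 16.77 ± 1.67. In every mouse Dnm2 lay above Pacsin2, Bin2 above Sh3glb1, Sh3glb1 above Sh3gl1 and Sh3gl1 above Bin3. Neighbors that overlapped were Snx18 above Dnm2 in 19 of 23 mice, Pacsin2 above Bin2 in 21 and Bin3 above Snx9 in 20. Snx9, the lowest, still stood at the 77.4th percentile of 12843 tested genes with a known length, and Snx18 at the 96.4th. Bin1 exceeded each of them in WT mice, at 169.8 ± 21.5 CPM per kb (SD, n = 6), or the 98th percentile over all mice. The order of the members rests on the length of all annotated exons, and the isoforms expressed here were not determined. In CPM, Sh3glb1 (mean 286.8) stood above Bin2 (mean 133.8).

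**Figure D1:**
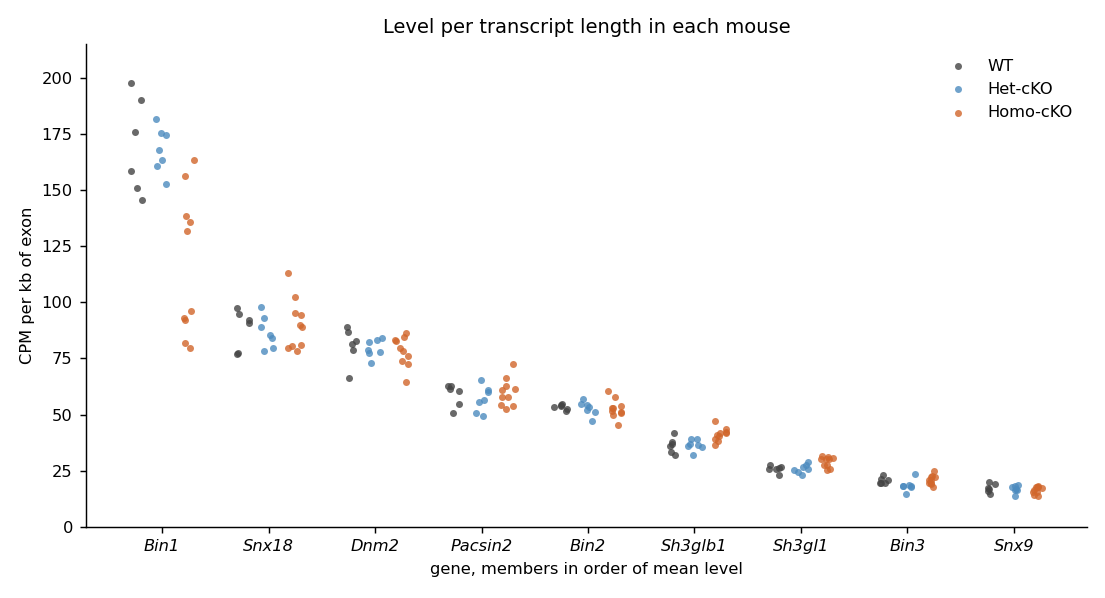
Level of Bin1 and of each member in CPM per kb of exon (vertical axis), 1 point per mouse, with the 3 genotypes side by side in WT, heterozygous and homozygous order. Members run from Snx18 (mean 88.69) down to Snx9 (mean 16.77), and only Bin1 shows homozygous mice far below the others.

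No member passed the test in homozygous against WT mice. At an adjusted p below 0.05, 0 of the 8 were called, in a comparison that called 12.7% of all tested genes. At an unadjusted p below 0.05, 2 of the 8 passed, Sh3gl1 and Sh3glb1, against 27.1% of all genes. The log2 fold changes of the 8 ran from -0.08 to 0.17, with a median of 0.025, beside a median of 0.0116 over all genes tested, and 5 were above 0 and 3 below. Over all 8 genes, the 95% intervals reached no higher than 0.30 and no lower than -0.24 on the log2 scale, that is, folds of 1.231 and 0.846. For no member were all homozygous mice above all WT mice or all below, which occurred for 0.674% and 1.14% of tested genes. DESeq2, the tool named in the study's methods, called 2 of the 8 where it called 15.1% of all genes, and limma-voom called 0.

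**Figure D2:**
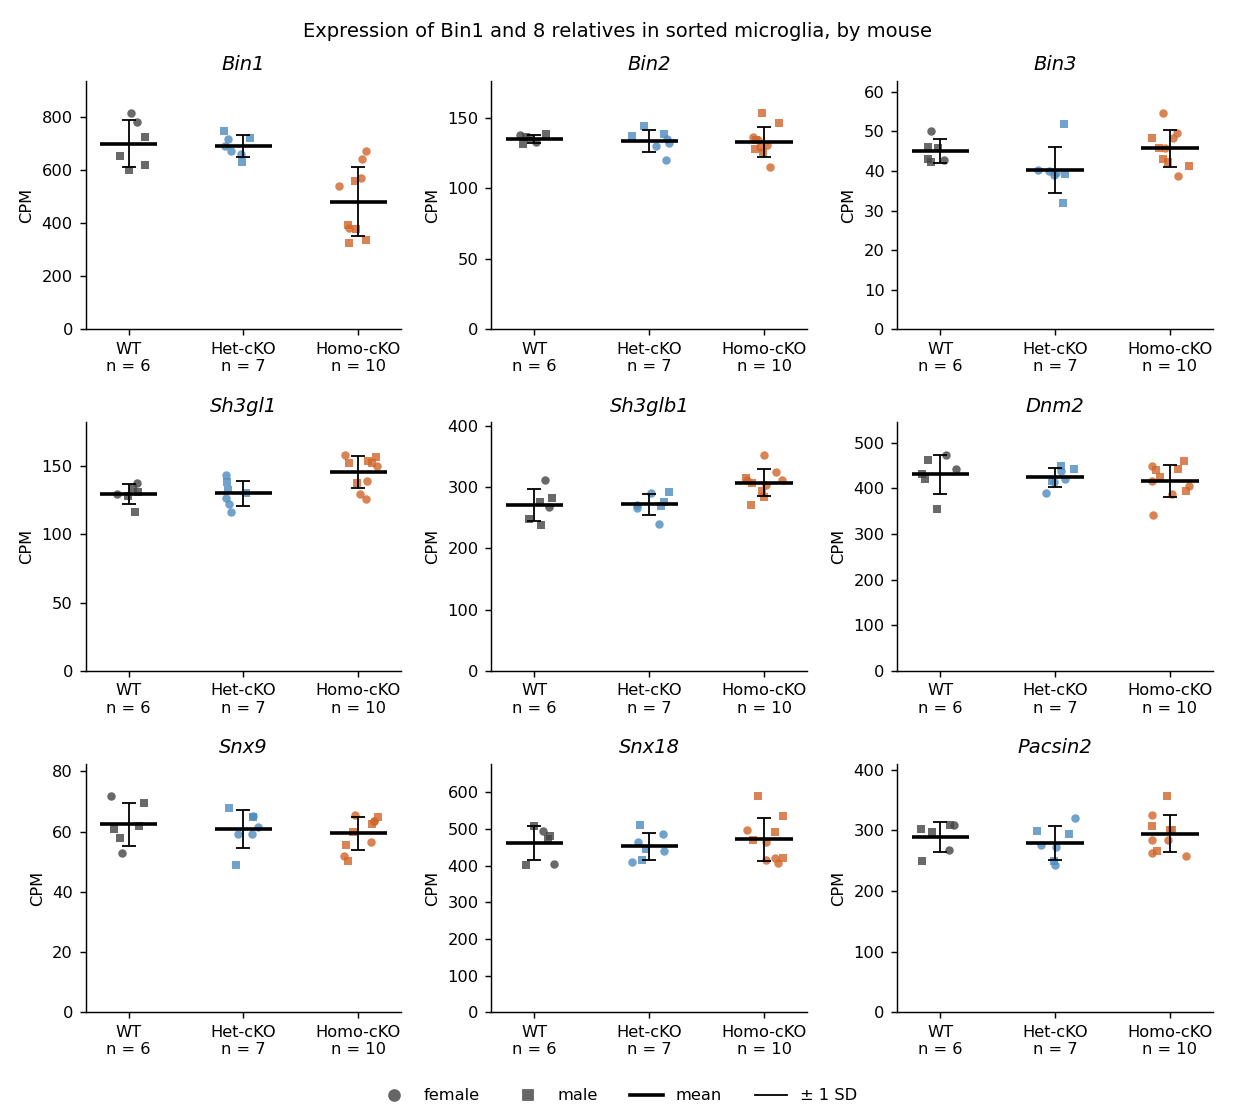
CPM of Bin1 and the 8 members (vertical axes start at 0) in each mouse by genotype, with circles for females, squares for males, wide bars for the mean and thin bars for 1 SD. Homozygous mice are low for Bin1 (8 of 10 below all WT mice), whereas the groups overlap for every member.

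The paralogs of Bin1 did not pass the test in either direction. Bin2 had 131, 135.8 and 138.2 CPM as lowest, median and highest values in WT, 119.6, 134.7 and 144.3 CPM in heterozygous mice and 114.8, 132.1 and 152.9 CPM in homozygous mice. The WT values were the most tightly spaced of any member, with a coefficient of variation of 2.1%, and the homozygous mice extended beyond them on both sides, 2 above and 5 below. Its log2 fold change in homozygous against WT mice was -0.01 (SE 0.0539, 95% interval -0.12 to 0.10, adjusted p = 0.93). Bin3 had 42.2, 44.47 and 50.08 CPM in WT, 32.02, 39.54 and 51.88 CPM in heterozygous mice and 38.65, 45.72 and 54.54 CPM in homozygous mice. Its homozygous values lay around those of WT, with a log2 fold change of 0.01 (SE 0.0829, interval -0.16 to 0.19, adjusted p = 0.94). The heterozygous mice differed in shape, as 6 of 7 lay below every WT mouse and the remaining 1 above every WT mouse.

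The endophilin genes had the highest estimates. Sh3gl1 (endophilin A2) had 116.6, 130.2 and 137.9 CPM as lowest, median and highest values in WT, 116.6, 129.9 and 143.6 CPM in heterozygous and 125.7, 151.1 and 158.2 CPM in homozygous mice. The homozygous mice fell into a lower stretch from 125.7 to 138.9 CPM, with 4 mice, and a higher one from 150.2 to 158.2 CPM, with 6 mice, and 7 of the 10 exceeded every WT mouse. Its log2 fold change in homozygous against WT mice was 0.17 (SE 0.0611, interval 0.05 to 0.30), a fold of 1.128, with an unadjusted p of 0.0086 and an adjusted p of 0.062 in edgeR's test. Sh3glb1 (endophilin B1) had 238.6, 271.4 and 311.2 CPM in WT, 240, 270.3 and 291.3 CPM in heterozygous and 270.7, 308.9 and 352.5 CPM in homozygous mice. Of the homozygous mice, 5 of 10 lay above every WT mouse, and none lay below the WT range. The log2 fold change of Sh3glb1 was 0.17 (SE 0.062, interval 0.04 to 0.30), a fold of 1.126, with an unadjusted p of 0.011 and an adjusted p of 0.070. Both therefore missed the threshold in edgeR, whereas DESeq2 gave adjusted p values of 0.033 for Sh3gl1 and 0.029 for Sh3glb1 at nearly the same fold changes.

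Of the 23 fits with 1 mouse left out, 3 called Sh3gl1 and 2 called Sh3glb1. Over the 23 fits, the log2 fold change ran from 0.15 to 0.20 for Sh3gl1 and from 0.15 to 0.21 for Sh3glb1. The adjusted p in edgeR reached 0.16 for each. Without mouse WT-F-0224, the WT mouse of highest Sh3gl1 and Sh3glb1, both were called (log2 fold changes 0.20 and 0.21, adjusted p = 0.046 and 0.038 in edgeR). Sh3gl1 alone was called without mouse Homo-F-0357 (0.19, adjusted p = 0.036) or mouse Homo-F-0432 (0.19, adjusted p = 0.045), and Sh3glb1 alone without mouse Homo-M-0436 (0.19, adjusted p = 0.048). With the mean log2 CPM of the neuron markers as a covariate, the log2 fold changes were 0.08 (SE 0.105) for both, with an adjusted p of 0.88 for each, in a fit that called 0.0465% of all genes. With the immediate early score as a covariate, Sh3gl1 had 0.10 (adjusted p = 0.42) and Sh3glb1 0.19 (adjusted p = 0.11), with 6.89% of all genes called. The fits without mouse Homo-F-0357, Homo-F-0432 or Homo-M-0436 called 12.4%, 12.7% and 12.3% of all genes. For the fit without mouse WT-F-0224 the share is not given here, so its calls cannot be set beside the background.

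Sh3gl1 and Sh3glb1 were not consistently high in the same mice. Mouse Homo-F-0342 (Sh3gl1 150.2 CPM, Sh3glb1 311.6 CPM) and mouse Homo-F-0440 (138.9 and 325.2 CPM) exceeded every WT mouse for both genes. Among homozygous mice, mouse Homo-F-0357 had the highest Sh3glb1 (352.5 CPM) and the lowest Sh3gl1 (125.7 CPM), and mouse Homo-M-0436 had the lowest Sh3glb1 (270.7 CPM) with one of the higher values of Sh3gl1 (154 CPM). Over 23 mice, after the mean of each genotype and sex was subtracted, the Pearson r of their log2 CPM was -0.098. In the 6 homozygous mice numbered from 300, Sh3gl1 had 149.1 ± 11.9 CPM (SD), and in the 4 numbered from 400 it had 139.9 ± 10.2 CPM, beside 129.5 ± 7.18 CPM in WT. Sh3glb1 had 308.3 ± 23.8 and 305.8 ± 24.1 CPM in these ranges, beside 270.5 ± 26 CPM in WT.

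Dnm2, the dynamin, had 354.3, 437.2 and 473.6 CPM in WT, 389.8, 420.6 and 449.2 CPM in heterozygous and 342.5, 421.2 and 460 CPM in homozygous mice. No homozygous mouse lay above the WT range and 1 lay below it. Its log2 fold change in homozygous against WT mice was -0.05 (SE 0.0659, interval -0.18 to 0.09, adjusted p = 0.71).

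The sorting nexins and Pacsin2 also remained within the spread between mice. Snx9 had 52.74, 61.43 and 71.71 CPM in WT, 48.83, 61.58 and 67.98 CPM in heterozygous and 50.28, 61.22 and 65.55 CPM in homozygous mice, with a homozygous against WT log2 fold change of -0.08 (SE 0.0797, interval -0.24 to 0.09, adjusted p = 0.58). Its groups overlapped almost completely, with 8 of 10 homozygous mice within the WT range. Snx18 had 401.2, 477 and 508.8 CPM in WT, 408.5, 445.5 and 511.1 CPM in heterozygous and 407.5, 467.6 and 588.8 CPM in homozygous mice, with a log2 fold change of 0.05 (SE 0.0768, interval -0.11 to 0.21, adjusted p = 0.74). Pacsin2 had 249.3, 299.4 and 308.4 CPM in WT, 242.2, 276.1 and 320.6 CPM in heterozygous and 257, 291.8 and 355.9 CPM in homozygous mice, with a log2 fold change of 0.04 (SE 0.0745, interval -0.12 to 0.19, adjusted p = 0.81). For both, 2 homozygous mice exceeded the WT range and none fell below it.

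**Figure D3:**
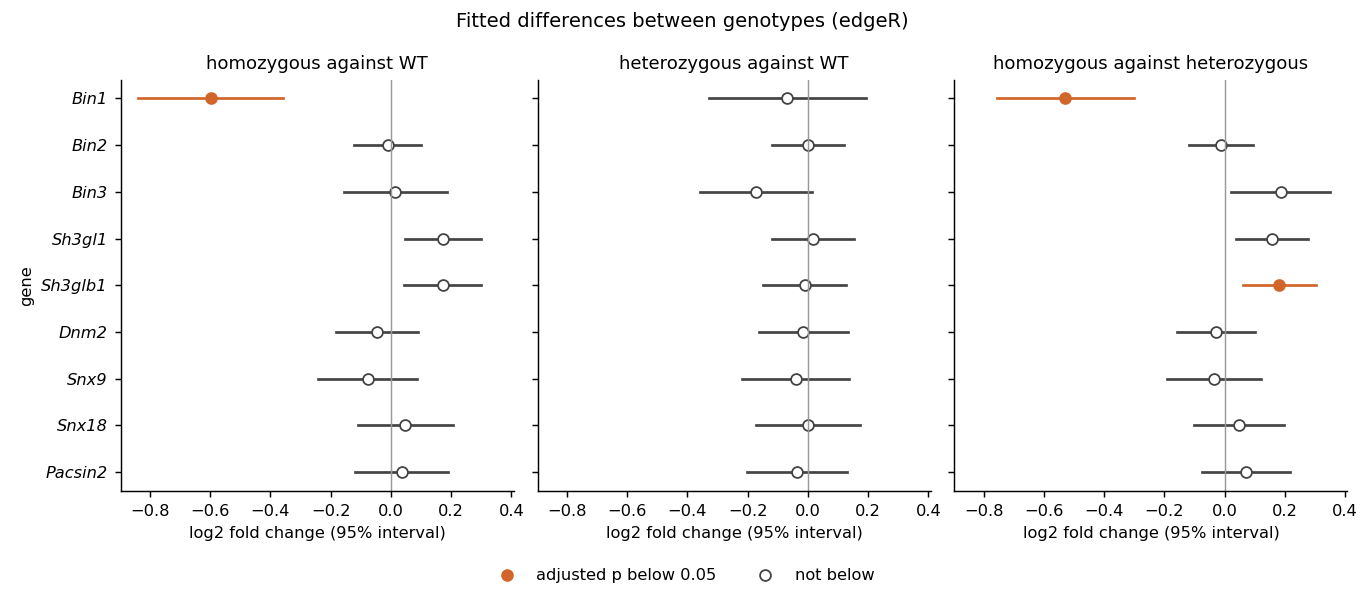
Log2 fold change (horizontal axis) with its 95% interval for Bin1 and the 8 members in 3 comparisons, filled orange where the adjusted p was below 0.05. Bin1 lies at -0.60 and -0.53 in the comparisons with homozygous mice, and among members only Sh3glb1 is filled, in homozygous against heterozygous mice.

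The summed level of the 8 members overlapped between the genotypes. It was 349, 386 and 410.8 CPM per kb as lowest, median and highest values in WT, 345.3, 380 and 401.3 in heterozygous and 362.4, 391.6 and 430.6 in homozygous mice. The means were 381.3 ± 21.5 CPM per kb (SD, n = 6) in WT and 388.4 ± 20 (n = 10) in homozygous mice, beside Bin1 levels of 169.8 ± 21.5 and 116.8 ± 31.6 CPM per kb.

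In heterozygous mice, Bin1 was not called against WT in microglia (log2 fold change -0.07, interval -0.33 to 0.19). The 4 heterozygous females (662.1 to 718.2 CPM) lay below the 2 WT females (783 and 814 CPM). Heterozygous males (629.1 to 746.9 CPM) overlapped WT males (599.7 to 724.4 CPM). No member was called in heterozygous against WT mice (0 of 8 in edgeR, DESeq2 and limma-voom, with 0 of 8 at an unadjusted p below 0.05). The background was 0% of genes at an adjusted and 7.73% at an unadjusted p below 0.05. This comparison shares the WT mice with the one above. The lowest estimate was that of Bin3, at -0.17 (SE 0.09, interval -0.36 to 0.01, unadjusted p = 0.069 in edgeR, adjusted p = 0.67). The other 7 members had log2 fold changes between -0.04 and 0.02, and those of the endophilin genes were 0.02 (SE 0.0661) for Sh3gl1 and -0.01 (SE 0.0667) for Sh3glb1.

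Homozygous and heterozygous mice both carry Thy1-Cre and differ in the second floxed allele. Between them, Bin1 was lower by -0.53 on the log2 scale (SE 0.111, adjusted p = 0.0015), and 1 of the 8 members, Sh3glb1, rose, in a comparison in which 22.7% of tested genes were called and 11.1% were called higher. Its log2 fold change was 0.18 (SE 0.0587, interval 0.06 to 0.30, adjusted p = 0.028), a fold of 1.134, and 8 of 10 homozygous mice lay above every heterozygous mouse. The next members were Sh3gl1 at 0.16 (SE 0.058, adjusted p = 0.052, 6 of 10 mice above) and Bin3 at 0.19 (SE 0.079, adjusted p = 0.092, 1 of 10 mice above). The remaining 5 had log2 fold changes between -0.04 and 0.07. DESeq2 called Sh3glb1 (adjusted p = 0.0074) and Sh3gl1 (adjusted p = 0.029) here, with 25.2% of all genes called.

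This call of Sh3glb1 was lost without 1 mouse and with the marker scores. Without mouse Het-F-0219, the mouse of lowest Sh3glb1 in its group, the log2 fold change was 0.15 (adjusted p = 0.068 in edgeR), and with each of the other 22 mice left out it was still called. It was 0.10 (SE 0.0919, adjusted p = 0.64) with the neuron marker score as covariate, whereas it was 0.20 (adjusted p = 0.053) with the immediate early score. Of all genes, 1.11% were called with the neuron marker score and 13.4% with the immediate early score, against 22.7% without a score. Within the homozygous mice of 1 number range, the log2 fold change of Sh3glb1 was 0.19 (adjusted p = 0.062) for those numbered from 300. For those numbered from 400 it was 0.18 (adjusted p = 0.16). These ranges called 19.2% and 10.9% of all genes. Without the 4 homozygous mice of highest Fos, an alternative chosen after seeing the data, Sh3glb1 had 0.21 (adjusted p = 0.044), with 14.9% of all genes called. The log2 fold change of Sh3gl1 was 0.08 with the immediate early score (adjusted p = 0.42) and with the neuron marker score (adjusted p = 0.73), and 0.10 without the 4 mice of highest Fos (adjusted p = 0.34). It was 0.19 with only the homozygous mice numbered from 300 (adjusted p = 0.043) and 0.10 with those numbered from 400 (adjusted p = 0.39). That of Bin3 was 0.08 with the neuron marker score (adjusted p = 0.81) and 0.27 with the immediate early score (adjusted p = 0.045). With 1 mouse left out it ranged from 0.14 to 0.27, and it was called only without mouse Het-M-0212, the mouse of highest Bin3 in its group (0.27, adjusted p = 0.0075 in edgeR). That fit called 20.6% of all genes.

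The difference between homozygous and WT mice was then compared between the sexes. No member's difference depended on sex by the interaction test (0 of 8 in edgeR, DESeq2 and limma-voom, and 0 of 8 at an unadjusted p below 0.05), in which 0% of all genes passed at an adjusted and 4.99% at an unadjusted p below 0.05. With 2 WT females the intervals were wide. The most distant from 0 was Dnm2, with females minus males at -0.24 (SE 0.13, interval -0.51 to 0.02, adjusted p = 0.98). Females had 457.6 CPM in WT and 400 CPM in homozygous mice, and males 417.6 and 432.4 CPM. For Sh3gl1, the log2 fold change was 0.07 (SE 0.0975) in females and 0.24 (SE 0.0781) in males, a difference of -0.17 (SE 0.124). For Sh3glb1 it was 0.15 (SE 0.0954) in females and 0.17 (SE 0.0762) in males, a difference of -0.02 (SE 0.121).

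Because Bin1 varied more among homozygous mice (coefficient of variation 27.1%) than among WT (12.6%) or heterozygous mice (5.87%), each member was also fitted on the log2 CPM of Bin1 within genotype and sex. A gene that is expressed more where Bin1 is lower would have a slope below 0. None of the 8 members was called, with 0 of 8 at an unadjusted p below 0.05 in edgeR and none called by DESeq2 or limma-voom. Over all 12907 genes fitted, 0.0155% passed at an adjusted and 4.27% at an unadjusted p below 0.05. The slopes, in log2 units per doubling of Bin1, ran from -0.20 for Snx18 (SE 0.136, interval -0.48 to 0.08) to 0.14 for Sh3glb1 (SE 0.109, interval -0.08 to 0.37). Sh3gl1 had a slope of -0.08 (SE 0.109). Thus 5 slopes were below 0 and 3 above, all with intervals that include 0.

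**Figure D4:**
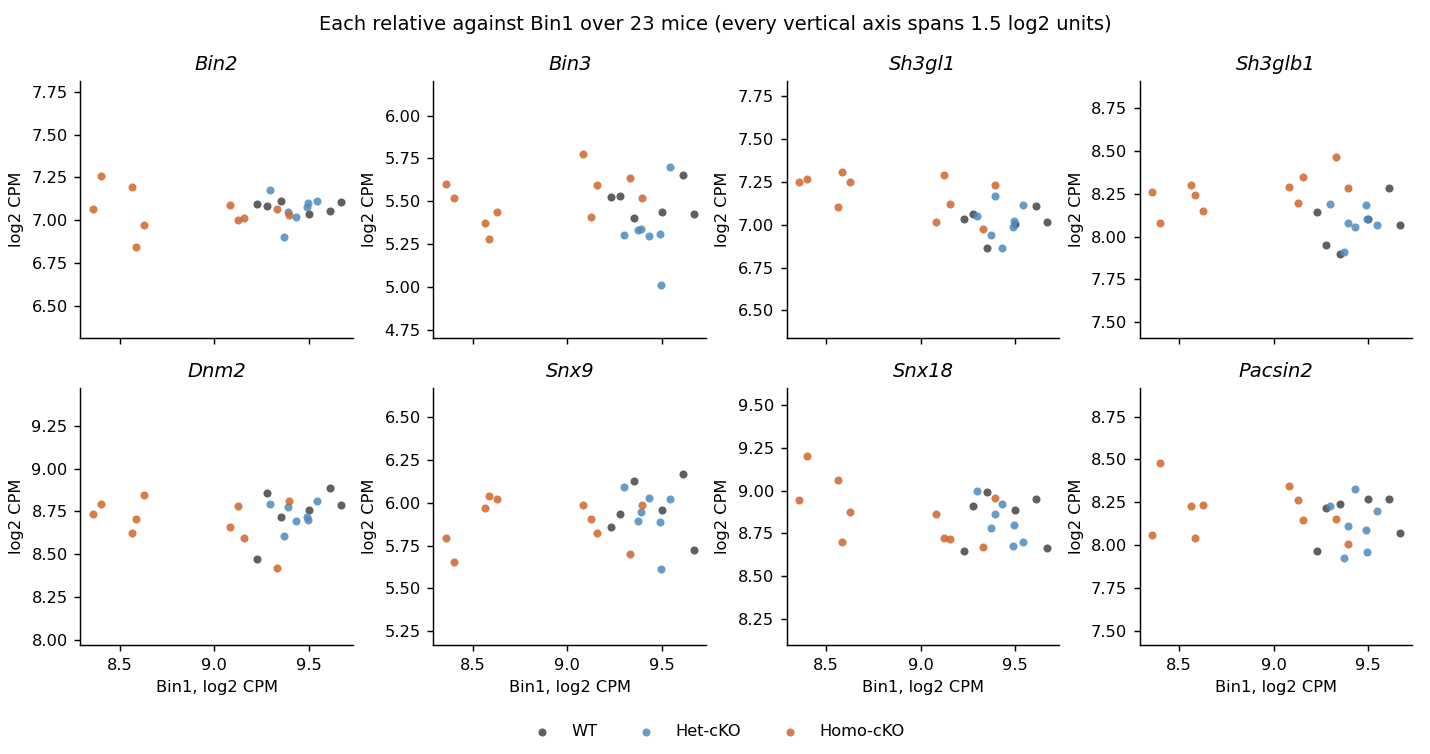
Log2 CPM of each member (vertical axis) against that of Bin1 (horizontal axis) over 23 mice, colored by genotype. Homozygous mice spread to the left along the Bin1 axis, and the fitted slopes within genotype ran from -0.20 (Snx18) to 0.14 (Sh3glb1).

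Few pairs of members varied together from mouse to mouse. Of the 28 pairs, 1 had a Pearson r above 0.5 over the 23 mice after the mean of each genotype and sex was subtracted, Dnm2 with Sh3gl1 at 0.557. The pairs ran from -0.386 (Dnm2 with Sh3glb1) to 0.557, with a median of 0.1355, and 10 of them were negative. These values share libraries and depth and are given as a description. The genes most like each member by the same measure were Crot for Snx9 (r = 0.876), H3f3a for Sh3glb1 (0.864), Rn7s1 for Bin3 (0.837), Lars for Pacsin2 (0.836), Zfp384 for Sh3gl1 (0.791), Pdxdc1 for Dnm2 (0.786), Selenon for Snx18 (0.786) and Tpt1-ps3 for Bin2 (0.771), each over 23 mice. Next in order were Prkab1 (0.839) and Hrh2 (0.791) for Snx9, Psma2 (0.848) and Paip2 (0.847) for Sh3glb1, 2010015M23Rik (0.834) and Lpcat4 (0.784) for Bin3, and Aars (0.818) and Sowahc (0.817) for Pacsin2. For Sh3gl1 they were Gm21811 (0.763) and Pias1 (0.715), for Dnm2 Elmo2 (0.784) and Actn4 (0.782), for Snx18 Nacc1 (0.784) and Champ1 (0.78), and for Bin2 Cgref1 (0.767) and Cdt1 (0.767).

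The members sit in a larger set of endocytic genes, for which 8 lists with 112 genes were used. Of these, 111 were found in the table and 96 passed the filter. In homozygous against WT mice, 9 of the 96 were called (9.38%, against 12.7% of all genes), 6 higher and 3 lower, and their median log2 fold change was 0.012. Clathrin and AP2, which form the coat and its adaptor, had 0 of 8 called, with log2 fold changes from -0.17 to 0.06. The I-BAR list had 0 of 4 called. In heterozygous against WT mice, 0 of the 96 were called, and in homozygous against heterozygous mice 25 were, 12 higher and 13 lower (26% against 22.7% of all genes).

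The called genes that rose came from 4 of the lists. Cdc42, a small GTPase that controls actin, had 873.1 ± 84.4 CPM in WT (SD, n = 6) and 1046 ± 41.7 CPM in homozygous mice (n = 10), with a log2 fold change of 0.27 (adjusted p = 0.0035 in edgeR). Actr2, a subunit of the Arp2/3 complex, rose by 0.30 (adjusted p = 0.013) and Wipf1, a partner of WASP, by 0.39 (adjusted p = 0.0073), so that 3 of 14 tested actin partners rose, where 5.66% of all genes were called higher. The other tested subunits of the Arp2/3 complex, Arpc1a, Arpc1b, Arpc2, Arpc3 and Arpc4, were not called, with log2 fold changes from 0.004 to 0.14. Dab2, a clathrin adaptor for cargo receptors, rose by 0.89 (adjusted p = 0.0014), from 16.16 ± 3.31 to 30.13 ± 7.99 CPM. It was the only 1 of 22 tested accessory proteins of clathrin pits to be called. Fcho2, an F-BAR protein of early pits, rose by 0.28 (adjusted p = 0.011) and Snx5, an endosomal sorting nexin, by 0.21 (adjusted p = 0.017).

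The 3 genes that fell are forms known from neurons, and they had low levels here. Dnm1, the neuronal dynamin and also one of the 13 neuron markers, had 2.795 ± 1.62 CPM in WT (SD, n = 6) and 0.5288 ± 0.596 CPM in homozygous mice (n = 10), a log2 fold change of -2.46 (adjusted p = 0.012 in edgeR). Sh3gl2, the neuronal endophilin A1, went from 1.397 ± 0.936 to 0.2416 ± 0.29 CPM, a change of -2.49 (adjusted p = 0.021). Pacsin1, the neuronal counterpart of Pacsin2, went from 13.9 ± 0.919 to 7.443 ± 2.32 CPM, a change of -0.94 (adjusted p = 0.00052). The summed neuron markers were also lower in homozygous mice (12.98 to 46.58 CPM in WT, 5.152 to 10.59 CPM in homozygous mice). With the neuron marker score as covariate, 0 of the 96 list genes were called, against 0.0465% of all genes. With so few calls over all genes, this count says nothing particular to the list, and Dnm1 is itself part of the score. The source of these falls was not tested.

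**Figure D5:**
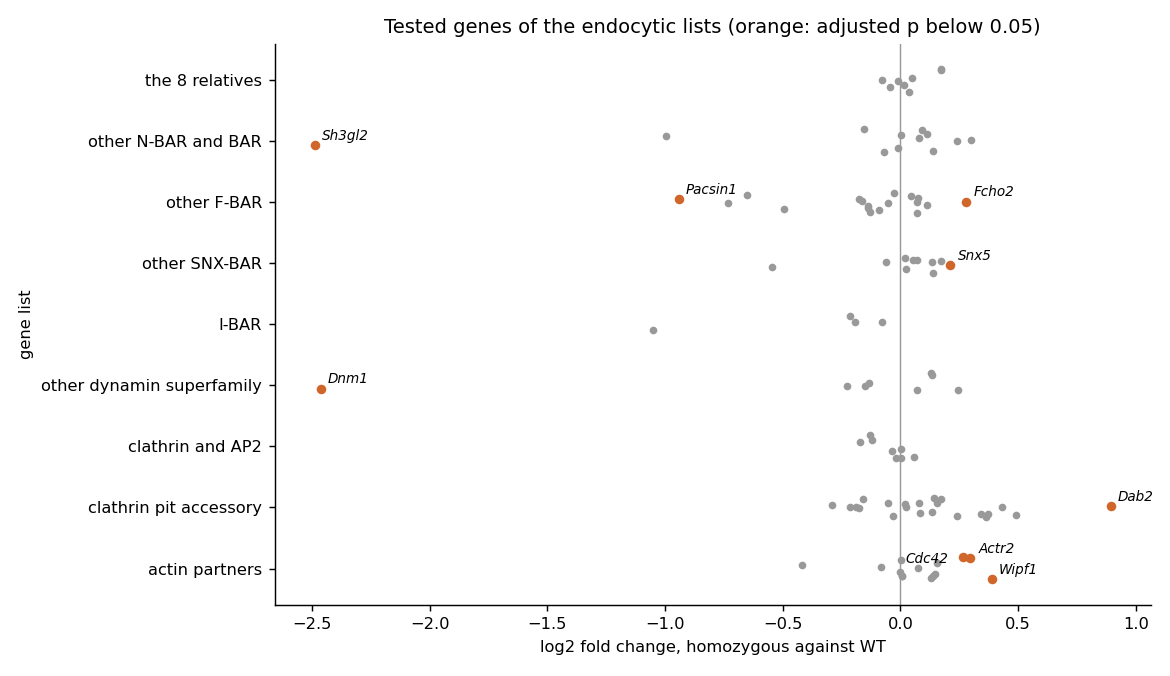
Log2 fold change in homozygous against WT mice (horizontal axis) of the 8 members and of every tested gene of the 8 endocytic lists (rows), 1 point per gene, orange and named where the adjusted p was below 0.05. The members lie between -0.08 and 0.17, while 6 list genes rose and Sh3gl2, Dnm1 and Pacsin1 fell.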

How the data were processed

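The authors aligned single-end reads (OmicSoft OSA4, mm10, Ensembl R84 annotation), and the deposited values are expected counts per gene estimated with RSEM, not normalized for depth or length. The authors removed a WT female and a heterozygous male for quality, and 2 labelled mice of these kinds have no column and entered no fit. Values were rounded to whole numbers (82.2% already were). Of 43411 gene identifiers, 42929 matched a symbol in the GRCm38 annotation, which also gave exon lengths.

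Genes were kept by filterByExpr and normalized by TMM, and tested with the quasi-likelihood test of edgeR 4.0.16 (R 4.3.3) in 1 fit of genotype and sex, with Benjamini-Hochberg adjustment over 12908 genes. Genes were called at an adjusted p below 0.05. Separate fits held the interaction of genotype with sex, or log2 CPM of Bin1. Alternatives were DESeq2 1.42.0, voom in limma 3.58.1, other normalizations, filters and samples, and marker scores as covariates. The script was tested on simulated data. The members and lists were chosen with earlier results of these data known. The text names all members, Bin1, the called genes of each endocytic list (at most 3 per direction) and the 3 genes of highest Pearson r with each member (log2 CPM, prior count 2). The libraries are separate mice. The spread between mice includes counting error, which was not separated from it.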

Additional observations from a re-analysis of the deposited data

Results flagged for a closer look

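Snx9 in heterozygous mouse Het-M-0227 stood apart from its group. It had 48.83 CPM, the lowest of 7 mice, while the next mouse had 59.19 CPM and the group's median was 61.58 CPM. Dixon's test was run on log2 CPM. On that scale, the gap was 0.581 of the group's range, above the 95% critical value for this number of mice. The ratio does not hold for the CPM values as printed. Such a value was found in 1 of 27 gene and group combinations, and chance alone gives about 1 in 20. The same mouse had the lowest Bin3 of the heterozygous group, at 32.02 CPM.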

How the results depend on the processing

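The 1 called value of a member, that of Sh3glb1 in homozygous against heterozygous mice, kept its sign under all alternatives run. In homozygous against WT mice, 0 of the 8 members were called, and 2 by DESeq2 (Sh3gl1 and Sh3glb1), with 0 to 2 when 1 mouse was left out. In homozygous against heterozygous mice the 1 member called became 2 with DESeq2, RLE or upper quartile normalization or no sex term. These settings called 22.6% to 25.2% of all genes. The count became 0 without a filter on low counts, with only the homozygous mice numbered from 400 or with the neuron marker score as covariate. It also became 0 with the fold threshold of 1.5 added. Those settings called 10.8%, 10.9%, 1.11% and 6.62% of all genes, in that order. The count stayed at 1 with the immediate early score, but the member was Bin3. With only the homozygous mice numbered from 300, the 1 member was Sh3gl1. The count was 0 to 3 when 1 mouse was left out (3 without mouse Het-M-0212, 0 without mouse Het-F-0219). These 2 fits called 20.6% and 17.8% of all genes. The 9 endocytic list genes called in homozygous against WT mice became 5 with the immediate early score, 0 with the neuron marker score and 4 with the fold threshold of 1.5. These settings called 6.89%, 0.0465% and 3.4% of all genes. The count of list genes ranged from 5 to 12 when 1 mouse was left out. It was 5 without mouse WT-F-0210, in a fit that called 9.48% of all genes. Over all 15 alternatives, this count ran from 0 to 13. The cause of these changes was not tested. Leaving out the 4 homozygous mice of highest Fos, chosen after seeing the data, gave the same count of members called in each of the 5 comparisons. It gave 6 endocytic list genes in homozygous against WT mice, where 8.34% of all genes were called. Other normalizations shifted the median of all genes by at most 0.003 on the log2 scale in the 3 comparisons of genotypes. No paired analysis was possible because the replicate numbers are animal numbers that groups do not share. The 95% intervals of the members in homozygous against WT mice lay between -0.24 and 0.30.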

Other observations

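Genes on a stretch of chromosome 1 were listed at 0 in every mouse. Between 115000001 and 165000000 on that chromosome (GRCm38), 276 of 302 protein-coding genes of the table (91.4%) had no count in any of the 23 mice, against 134 of 865 (15.5%) on the rest of the chromosome. Listed genes in the stretch were Dnm3, the third classical dynamin, Srgap2, Actr3, Arpc5 and Btg2, and they entered no comparison. Actr3 and Arpc5 are subunits of the Arp2/3 complex that most cells use, so the value is given only as listed at 0. No member lies on chromosome 1.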
